A study of Mus musculus with 6 samples.

Results

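The TAM receptors Tyro3, Axl and Mertk, their ligands Gas6 and Pros1, the bridging molecule Mfge8 and the integrin subunits Itgav and Itgb5 were followed in mouse retinal RNA. These 8 genes were picked by symbol from the 23420 genes of the deposited count table, and all 8 were found and passed the filter on low counts in each comparison. There were 3 groups of 2 libraries. Control mice received no treatment. The light group was exposed to 10000 lux for 1 h and analysed after 4 days. The minocycline group received the same light and, in addition, intraperitoneal injections of minocycline, a tetracycline antibiotic, at 45 mg/kg per day for 4 days. All mice were labelled as CD1, an albino outbred strain, and the tissue as retina. No vehicle injection was named for the control or light group, so minocycline and the injections cannot be told apart. The study's methods name the albino strain BALB/cJ, adult mice of both sexes, a brighter lamp and a denser early injection schedule for its light experiments, which differ from the labels, and the labels were followed here. The libraries of a group were separate samples, and whether each held 1 mouse or pooled retinas was not given in the sources used here.

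Efferocytosis is the clearance of dying cells and shed membrane by phagocytes, which recognise phosphatidylserine exposed on the outer leaflet of the target. Tyro3, Axl and Mertk are receptor tyrosine kinases that do not bind this lipid themselves but through Gas6 or protein S (the product of Pros1), whereas Mfge8 links it to the integrin formed by the subunits of Itgav and Itgb5. In the eye, Mertk and this integrin are best known from the retinal pigment epithelium, where they serve the daily uptake of rod outer segments, and loss of Mertk causes photoreceptor degeneration. Microglia and Mueller glia also carry TAM receptors.

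Total counts ranged from 15205930 to 22856922 per library, and the 8 genes took between 0.0558% and 0.0906% of them. Rod markers marked the tissue as retina: the summed level of 10 rod genes ran from 42734.6 to 103196 CPM (counts scaled to a common library size) in the 6 libraries. In control 1 the female transcript Xist had 77778 counts and Y-linked genes 11, against 25 to 188 and 6532 to 12858 in the other 5 libraries, so control 1 stood apart by sex-linked genes. The header names both minocycline libraries alike, and they are called minocycline A and B.

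Light exposure was followed by higher transcript levels of Axl, Mertk, Pros1 and Itgav 4 days later, while Gas6 and Mfge8, the most abundant of the 8 genes, did not pass the test. In edgeR's quasi-likelihood test, with p adjusted by Benjamini-Hochberg over 14349 genes, 4 of the 8 genes were higher at an adjusted p under 0.05, where 7.52% of all tested genes were called higher. None of the 8 was called lower, where 3.8% of all tested genes were. An unadjusted p under 0.05 was reached by 6 of the 8, beside 28.9% of all tested genes. DESeq2 called 5 of the 8 higher, beside 7.72% of all genes it tested, and 0 lower, beside 5.28%. With the fold cutoff that the study used as well (a log2 fold change of at least 2), only Axl remained among the 8, against 2.89% of all tested genes. The median log2 fold change of the 8 genes was 1.16, beside 0.0025 over all tested genes. In bulk retina, a change in the number of cells that carry a transcript and a change in RNA per cell cannot be told apart. Overlap between groups is given gene by gene as a description, and the share of all genes without overlap was not counted.

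**Figure D1:**
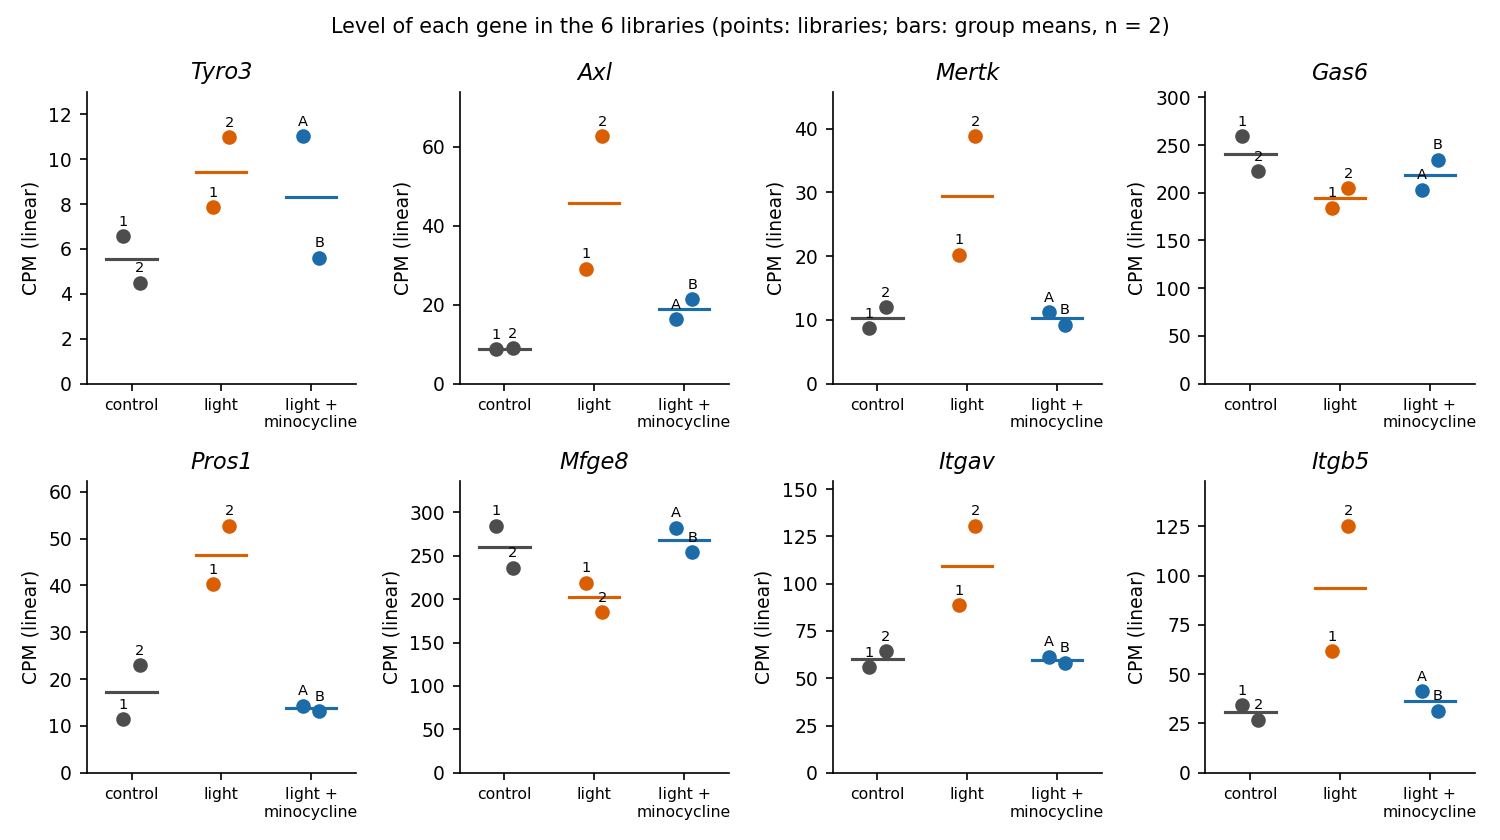
Level of each gene in CPM on linear axes that start at 0, with 1 point per library (numbered or lettered as in the text) and a bar at each group's mean (n = 2). The light points of Axl, Mertk, Pros1, Itgav and Itgb5 lie above all control and minocycline points, and Axl reaches 62.6 CPM in light 2.

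Among the receptors, Axl, which binds Gas6 but not protein S and is typically raised in inflamed tissue, had 8.71 and 8.93 CPM in controls 1 and 2, 29.1 and 62.6 CPM in light 1 and 2, and 16.3 and 21.4 CPM in minocycline A and B. The controls were nearly equal, light 2 was far above light 1, and no groups overlapped. Axl was 5.24-fold higher in light than in control (log2 2.39, SE 0.38, adjusted p = 0.0219 by edgeR), the largest change of the 8 genes. Group means were 8.82 ± 0.156 CPM in control and 45.9 ± 23.7 CPM in light (SD, n = 2).

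Mertk, the receptor that pigment epithelium and macrophages need to engulf outer segments and apoptotic cells, had 8.63 and 12 CPM in the controls, 20.2 and 38.8 CPM after light, and 11.2 and 9.26 CPM with minocycline. Both light libraries were above all others, and control and minocycline values overlapped. The rise after light was 2.88-fold (log2 1.52, SE 0.33, adjusted p = 0.0303 by edgeR). Tyro3, the TAM receptor best known from neurons, had the lowest counts of the 8 genes, 64 to 252 per library. Its level was 6.57 and 4.50 CPM in the controls, 7.86 and 11.0 CPM after light, and 11.0 and 5.61 CPM with minocycline. The light and control values did not overlap, but the 2 minocycline libraries differed 1.97-fold from each other and spanned most of the range. Tyro3 had a log2 fold change of 0.78 (SE 0.31) in light against control and did not pass the test (adjusted p = 0.125 by edgeR).

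The 2 ligands differed. Pros1, which encodes the anticoagulant protein S and the ligand of Tyro3 and Mertk, had 11.5 and 22.9 CPM in the controls, 40.2 and 52.7 CPM after light, and 14.3 and 13.2 CPM with minocycline. Control 2 held 1.99 times the level of control 1, and both light libraries were above every other library. Pros1 rose 2.72-fold after light (log2 1.44, SE 0.33, adjusted p = 0.0422 by edgeR). Gas6, which can engage all 3 TAM receptors, had 259 and 223 CPM in the controls, 184 and 204 CPM after light, and 203 and 234 CPM with minocycline. Its light values lay below the controls without overlap, at a log2 fold change of -0.30 (SE 0.16) that did not pass the test (adjusted p = 0.231 by edgeR, 95% interval -0.64 to 0.04).

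Mfge8, the secreted bridge between phosphatidylserine and integrins, had 285 and 236 CPM in the controls, 219 and 185 CPM after light, and 282 and 254 CPM with minocycline. The light libraries were the lowest pair, but the log2 fold change of -0.36 (SE 0.16) did not pass the test (adjusted p = 0.18 by edgeR, 95% interval -0.72 to 0.01). Itgav, the alpha v subunit, had 55.9 and 64.2 CPM in the controls, 88.5 and 131 CPM after light, and 61.3 and 58.1 CPM with minocycline. Its light values stood above all others, with a rise of 1.84-fold (log2 0.88, SE 0.19, adjusted p = 0.0232 by edgeR). Itgb5, the beta 5 subunit that pairs with alpha v alone, had 34.4 and 27.0 CPM in the controls, 61.6 and 125 CPM after light, and 41.4 and 31.4 CPM with minocycline. The light libraries were again the highest and differed 2.03-fold from each other, and the log2 fold change of 1.62 (SE 0.38) was larger than that of Itgav but missed the threshold (adjusted p = 0.0617 by edgeR). Itgb5 passed in DESeq2 (adjusted p = 1.08e-06).

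The 4 calls rested on the few libraries. Without either control, none of the 8 genes passed, and over all genes 2 were called higher without control 1 and 6 without control 2. Without light 2, 1 gene of the 8 passed, Axl, at a log2 fold change of 1.73. Without light 1, 5 passed, with Itgb5 as the added gene. Over all genes, 107 were called higher without light 2 and 1159 without light 1. Without control 1, the log2 fold changes were 2.36 for Axl, 1.29 for Mertk, 1.02 for Pros1 and 0.77 for Itgav. Without light 2 they were 0.97 for Mertk, 1.23 for Pros1 and 0.56 for Itgav, and that of Itgb5 fell to 1.01. The direction was the same in each case. Itgav shares 634 exonic bases with the antisense gene Gm13684 and Gas6 shares 34 with the antisense gene Tmem255b, and whether counting used the strand was not given in the sources used here.

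**Figure D2:**
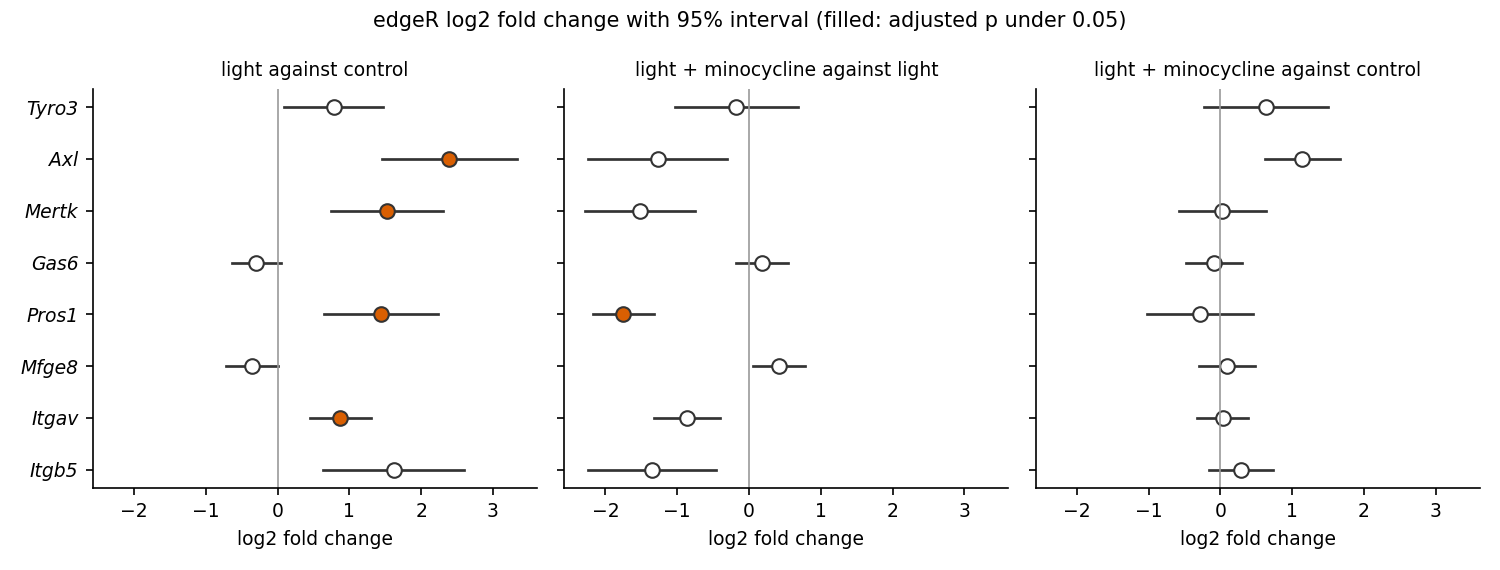
Fitted log2 fold change of each gene (points) with its 95% interval (lines) in the 3 comparisons, 2 libraries against 2, and filled points where the adjusted p was under 0.05. After light, 4 points are filled, from 0.88 for Itgav to 2.39 for Axl; with minocycline against light, only Pros1 at -1.75 is filled, and none is filled with minocycline against control.

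With minocycline, light-exposed retinas had less Pros1 than with light alone. Pros1 was called lower, 3.36-fold (log2 -1.75, SE 0.18, adjusted p = 0.0444 by edgeR), and ranked 6th by p among 14750 tested genes. It was the 1 gene of the 8 called lower, where 0.0407% of all tested genes were, and none was called higher, where 0.0136% of all tested genes were. An unadjusted p under 0.05 was reached by 6 of the 8 genes, beside 21.1% of all tested genes. DESeq2 called 5 lower (Axl, Mertk, Pros1, Itgav and Itgb5), beside 4.62% of all genes it tested, and 0 higher, beside 2.9%. The Pros1 call of edgeR was lost with DESeq2 size factors (adjusted p = 0.0604) and with total library size (adjusted p = 0.0986). The median log2 fold change of the 8 genes was -1.07, beside 0.01 over all tested genes. The comparisons of light with control and of minocycline with light share the light libraries, so the values stand side by side and are no independent evidence of each other.

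None of the other 7 genes passed the test of edgeR. Mertk had a log2 fold change of -1.52 (SE 0.32, adjusted p = 0.0819 by edgeR), Itgav -0.87 (SE 0.19, adjusted p = 0.0844), Itgb5 -1.35 (SE 0.35, adjusted p = 0.126) and Axl -1.27 (SE 0.39, adjusted p = 0.153). In all 4 genes both minocycline libraries lay below both light libraries, and the share of all genes with such a separation was not counted. Mfge8 lay above light in both minocycline libraries, at 0.42 (SE 0.16, adjusted p = 0.187). Gas6 (0.18, SE 0.16) and Tyro3 (-0.17, SE 0.36) overlapped between the groups, with adjusted p of 0.549 and 0.828 by edgeR. The Pros1 call was lost without light 2 (log2 -1.56, adjusted p = 0.209) and without either minocycline library, whereas without light 1 the same 5 genes that DESeq2 called were called lower, among 838 lower genes in the whole table. Without light 2 the log2 fold changes were -0.99 for Mertk, -0.58 for Itgav, -0.77 for Itgb5 and -0.64 for Axl.

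Against control, the minocycline group differed most in Axl. Both minocycline libraries had more Axl than both controls, at a fitted group fold of 2.20 (log2 1.14, SE 0.23), with an unadjusted p of 0.000854 and an adjusted p of 0.133 by edgeR, and DESeq2 called it (adjusted p = 0.0229), as the 1 gene of the 8 called higher, beside 1.09% of all genes it tested, with 0 lower, beside 0.0267%. None of the 8 genes was called by edgeR, where 0.162% of all tested genes were called, and the other 7 overlapped between the groups. An unadjusted p under 0.05 was reached by 1 of the 8, beside 7.01% of all tested genes. The mean of Mertk was 10.2 ± 1.34 CPM with minocycline and 10.3 ± 2.39 CPM in control, and that of Itgav was 59.7 ± 2.28 and 60.1 ± 5.86 CPM (SD, n = 2). The 95% intervals of these differences, -0.58 to 0.63 for Mertk and -0.32 to 0.39 for Itgav on the log2 scale, bound what 2 libraries could show. Itgb5 (log2 0.29, -0.16 to 0.74), Pros1 (-0.28, -1.02 to 0.45), Tyro3 (0.64, -0.22 to 1.49), Mfge8 (0.09, -0.30 to 0.48) and Gas6 (-0.09, -0.48 to 0.30) had intervals across 0.

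Levels of different genes were compared per length, as RPKM (CPM per kilobase of merged exons). In control, Gas6 led with 94.5 ± 10.1 RPKM, followed by Mfge8 (55.5 ± 7.30), Itgb5 (8.64 ± 1.47), Itgav (5.59 ± 0.546), Pros1 (4.21 ± 1.98), Mertk (2.38 ± 0.552), Axl (1.75 ± 0.0309) and Tyro3 (0.892 ± 0.236; SD, n = 2). Neighbours in this order did not overlap, except Itgav and Pros1. The order depends on the exon lengths used, 2548 bases for Gas6 and 4694 for Mfge8. By CPM, Mfge8 was above Gas6 in both controls (285 and 236 against 259 and 223). Gas6 and Mfge8 transcripts were far above those of the 3 receptors. After light, Gas6, Mfge8 and Itgb5 stayed the highest and Tyro3 the lowest, while Pros1 (11.4 ± 2.16), Itgav (10.2 ± 2.78), Axl (9.12 ± 4.71) and Mertk (6.80 ± 3.03 RPKM) overlapped from neighbour to neighbour. In the minocycline group Axl (3.75 ± 0.718 RPKM) lay above Mertk (2.35 ± 0.309), and neighbours overlapped only for Axl and Pros1 (3.36 ± 0.195).

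The make-up of the receptor pool differed by library. The summed RPKM of the 3 TAM receptors was 4.78 and 5.27 in the controls, 11.7 and 23.2 after light and 7.59 and 7.30 with minocycline. Mertk took the largest part in the controls, 41.7% and 52.6%, against 36.2% and 33.6% for Axl. In the other 4 libraries Axl took the largest part, with 49.4% and 53.7% after light and 42.7% and 58.3% with minocycline. The ratio of Axl to Mertk was below 1 in both controls (0.869 and 0.640). It was above 1 in every light-exposed library, 1.24 and 1.39 without and 1.26 and 1.99 with minocycline. In control 1 the counts were nearly equal, 122 for Axl and 121 for Mertk. Their order there rests on the merged exon lengths used, 5033 bases for Axl and 4336 for Mertk. Pros1 made up 2.69% and 6.03% of the summed RPKM of Gas6 and Pros1 in the controls, 12% and 13.9% after light, and 4.20% and 3.38% with minocycline, so Gas6 was the more abundant ligand transcript throughout. The ratio of Itgav to Itgb5 was 0.538 and 0.787 in the controls, 0.475 and 0.345 after light, and 0.490 and 0.612 with minocycline. These ratios are descriptions, and with 2 libraries a group no exact permutation test can fall below 0.333.

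**Figure D3:**
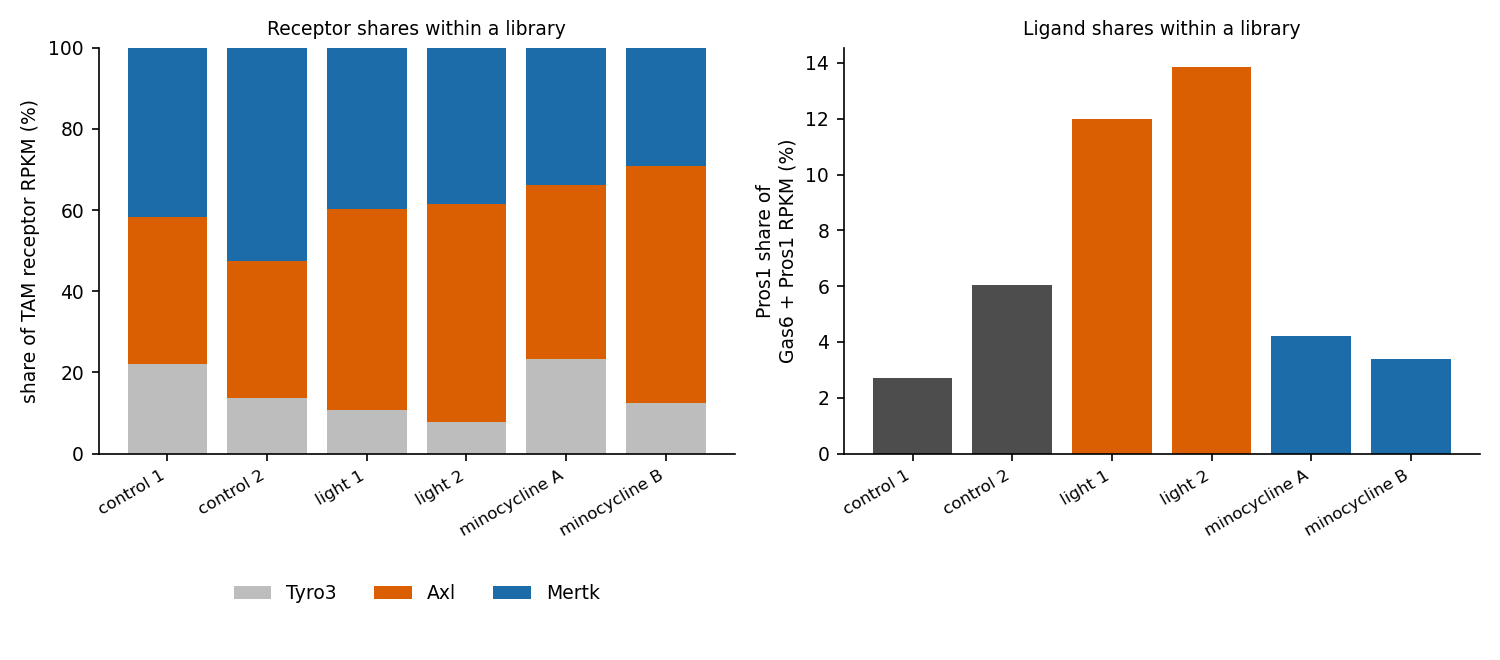
Left, percent of the summed RPKM of the 3 TAM receptors taken by each receptor in each library (stacked bars); right, percent of the summed RPKM of Gas6 and Pros1 taken by Pros1. Axl holds 33.6% to 36.2% in the controls and 42.7% to 58.3% in the light-exposed libraries, and Pros1 stands at 12% and 13.9% in the light libraries and at most at 6.03% in the others.

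The promoters of the 4 genes called higher after light are shown so that any letters they share upstream of their starts can be read directly. Sequences of 250 bases before the RefSeq start are given on the gene's strand (RefSeq, build GRCm38.p6), with capitals at matches to any of 8 motifs searched on both strands. Of the 8 genes, 8 had a RefSeq promoter.
Axl (chr7:25788734-25788983, minus strand): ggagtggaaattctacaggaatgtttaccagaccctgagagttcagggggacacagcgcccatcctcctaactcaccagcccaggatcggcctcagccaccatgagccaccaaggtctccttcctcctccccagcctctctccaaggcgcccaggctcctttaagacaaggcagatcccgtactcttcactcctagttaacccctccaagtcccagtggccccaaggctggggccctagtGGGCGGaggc
Mertk (chr2:128698665-128698914, plus strand): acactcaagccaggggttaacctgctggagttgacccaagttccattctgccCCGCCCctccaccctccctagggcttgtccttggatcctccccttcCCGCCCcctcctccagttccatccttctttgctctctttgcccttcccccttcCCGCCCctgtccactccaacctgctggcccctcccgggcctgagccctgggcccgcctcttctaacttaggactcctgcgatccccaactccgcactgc
Pros1 (chr16:62854057-62854306, plus strand): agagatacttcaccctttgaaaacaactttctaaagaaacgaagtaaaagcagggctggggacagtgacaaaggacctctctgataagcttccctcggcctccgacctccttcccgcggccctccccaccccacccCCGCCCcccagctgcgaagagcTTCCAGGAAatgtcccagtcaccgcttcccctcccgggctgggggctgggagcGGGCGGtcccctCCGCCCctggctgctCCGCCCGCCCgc
Itgav (chr2:83724147-83724396, plus strand): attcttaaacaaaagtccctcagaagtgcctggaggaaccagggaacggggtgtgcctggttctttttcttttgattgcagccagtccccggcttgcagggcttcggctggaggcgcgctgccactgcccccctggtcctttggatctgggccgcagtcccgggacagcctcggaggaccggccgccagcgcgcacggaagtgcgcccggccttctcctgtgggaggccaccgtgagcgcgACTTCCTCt
The capitals mark GC boxes (GGGCGG or its reverse complement CCGCCC), in Pros1 also a STAT site (TTCNNNGAA, first base at -92 from the start) and in Itgav a PU.1 site (GAGGAAGT, read here on the other strand, at -9).

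In windows of 300 bases, from 250 before to 50 after the start, a GC box was found in all 8 genes and in 35.7% of 32851 promoters, and in Itgav it lay at 7 bases past the start, beyond the stretch shown. The STAT site was found only in Pros1 of the 8 (8.3% of all promoters) and the PU.1 site only in Itgav (3.2%). The interferon response core (GAAA repeated after any 2 bases, 3.44% of all promoters), the AP-1 site TGANTCA (7.81%), the ETS core CCGGAAG (8.86%), CCAAT (37.4%) and TATAAA (13.6%) were in none of the 8 windows. GC content of the 250 bases was 60% for Axl, 63.6% for Mertk and 64.4% for both Pros1 and Itgav, and the quartiles over all promoters were 45.2%, 52.4% and 61.2%. Gas6 and Mfge8, which were not called, also held GC boxes, 4 each, so this motif did not separate the called genes from the others. A match is a description of letters and shows no binding. The bodies of Axl (chr7:25757273-25788705, minus strand), Mertk (chr2:128698956-128802894, plus), Pros1 (chr16:62854307-62929346, plus) and Itgav (chr2:83724397-83806916, plus) follow GENCODE M21 on GRCm38.

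Genes with the most similar pattern were sought for the 6 genes that spanned at least 1 on the log2 CPM scale over the 6 libraries, by the root mean square difference of centred log2 CPM among 14712 genes. Gas6 and Mfge8 spanned 0.49 and 0.62 and were not searched. Axl was nearest to Cd63 (0.10), Uap1l1 (0.12) and Gbp2 (0.14), with 34 genes within 0.25. Pros1 was the most distant from any other gene, with Best3 (0.13), Clcf1 (0.16) and Jak3 (0.19) nearest and 19 genes within 0.25. Mertk was nearest to Fes (0.10), Sphk1 (0.10) and Galns (0.11), with 96 genes within 0.25. Itgb5 was nearest to Ftl1 (0.09), whose near-identical pseudogenes make its count uncertain, Camk1 (0.09) and BC064078 (0.10), with 125 within 0.25. Patterns of small span had many neighbours: Itgav had 876 genes within 0.25, led by Cryl1, Cchcr1 and Sh2b3 (0.04 each), and Tyro3 had 706, led by Fam19a5 (0.07), Adap1 (0.08) and Itm2c (0.09). Among the 8 genes themselves, Gas6 and Mfge8 differed least (0.19), then Mertk and Pros1 (0.25) and Mertk and Itgb5 (0.26).

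Other genes of the pathway were taken from 9 lists. Of 97 listed genes, 94 were tested after light, and 19 were higher and 2 lower by edgeR, with a median log2 fold change of 0.36. Over all tested genes, edgeR called 7.52% higher and 3.8% lower. DESeq2 called 28 of the listed genes higher and 6 lower, beside 7.72% and 5.28% of all genes it tested. Without either control none of the 94 was called, without light 2 there were 5 higher, and without light 1 there were 29 higher and 1 lower. With minocycline against light, none of the 94 was called by edgeR in either direction (median -0.17), 35 had an unadjusted p under 0.05, beside 21.1% of all tested genes, and DESeq2 called 17 lower and 4 higher, beside 4.62% and 2.9% of all genes it tested. Lower and higher calls were 21 and 1 without light 1, 3 and 0 without light 2, 2 and 1 without minocycline A, and 0 and 0 without minocycline B.

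By edgeR, other phosphatidylserine receptors had 3 genes higher and 1 lower among 14 tested. DESeq2 called 7 higher and 1 lower (7.72% and 5.28% of all genes it tested), and 9 had an unadjusted p under 0.05 (28.9% of all tested genes). Havcr2 (log2 4.13), Stab1 (4.01) and Cd36 (3.53) did not pass by edgeR (adjusted p = 0.109, 0.0706 and 0.227). Cd300lf, a myeloid immunoglobulin receptor, rose (log2 2.10, adjusted p = 0.0395 by edgeR), as did Megf10, an astrocyte engulfment receptor (0.77), and Scarb1, a lipoprotein scavenger receptor, fell (-0.65). Cd300ld had 0 counts in both controls and both minocycline libraries and 11 and 36 counts after light, at least 5.52-fold over a floor of 3 counts per library (3.02-fold without light 2 and 8.03-fold without light 1). Timd4 and Havcr1 were at or under 3 counts in all libraries.

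Among 13 other bridging molecules and ligands, edgeR called 3 higher and none lower, with 10 at an unadjusted p under 0.05 (28.9% of all tested genes), and DESeq2 called 7 higher and 3 lower (7.72% and 5.28% of all genes it tested). Lgals3, galectin 3, which has been described as a Mertk ligand, had 5.0 and 3.87 CPM in the controls and 28.4 and 64.9 CPM after light (log2 3.41, adjusted p = 0.0199 by edgeR). The phosphatidylserine-binding annexins Anxa5 (1.57) and Anxa1 (1.11) were the others. Spp1, osteopontin, a ligand of alpha v integrins, had 4.64 and 4.57 CPM in the controls, 366 and 1664 CPM after light and 14.2 and 20.8 CPM with minocycline. Its light libraries were far apart and its light comparison missed the threshold (log2 7.79, adjusted p = 0.061), while it was higher with minocycline than in control (1.97, adjusted p = 0.0437 by edgeR). That call was lost when any control or minocycline library was left out, and with all 6 libraries in a single fit.

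Of 5 tested integrin partners, 3 were higher after light. They were Itgb3, the other classic partner of alpha v (log2 3.27, from 2 and 4 to 25 and 57 counts), Itga5 (2.45) and its partner Itgb1 (0.81). Control 1 was under the floor of 3 counts for Itgb3, so the size of its change is uncertain. Of 13 engulfment genes 3 were higher, the small GTPases Rhog (1.95) and Rac1 (0.59) and the lipid transporter Abca1 (1.40). Of 11 find-me and don't-eat-me genes 4 were higher, all chemokine or nucleotide receptors: Cx3cr1 (3.82), P2ry2 (2.34), P2ry12 (1.73) and P2ry6. Cx3cr1 and P2ry12 are also microglial markers. P2ry6 had 1 count in each control and 34 and 132 after light, at least 19.4-fold over the floor of 3 counts (9.32-fold without light 2 and 29.4-fold without light 1).

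Among 11 regulators of TAM receptors, edgeR called 1 higher, the kinase Src (0.62), and 1 lower, the nuclear receptor Rxra (-0.53), and DESeq2 called 0 higher and 1 lower, so that the Src call was lost. Of 14 phagosome genes 2 were higher, Myo7a (1.89), a motor protein, and the lysosomal Lamp2 (0.85). None of 8 genes of phosphatidylserine exposure and none of 5 genes of the vitamin K cycle, which activates Gas6 and protein S by carboxylation, passed the test by edgeR or DESeq2, with medians of 0.05 and -0.17 and 3 and 1 genes at an unadjusted p under 0.05. The shares called can be read against the 7.52% of all tested genes given above.

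**Figure D4:**
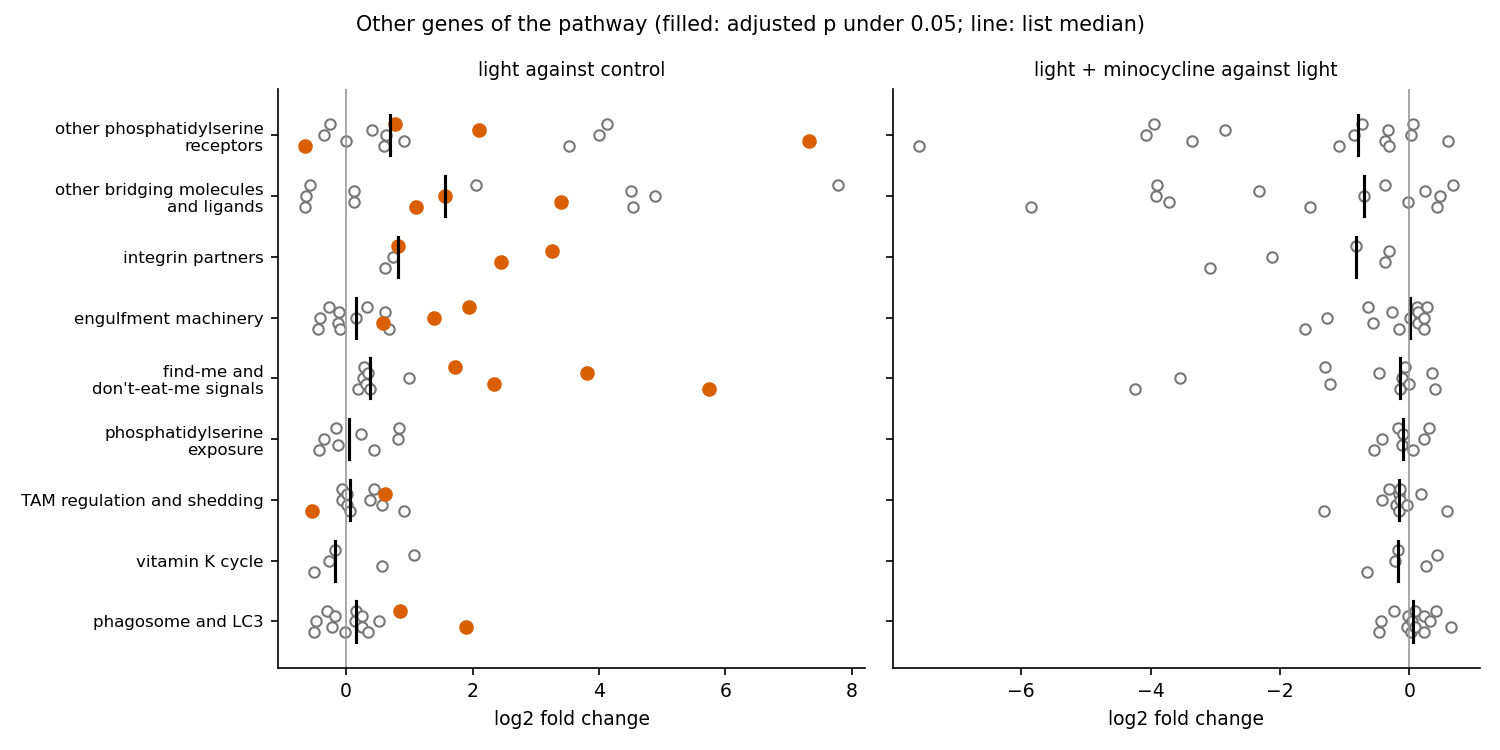
Fitted log2 fold changes of the genes of 9 pathway lists (points, filled where the adjusted p was under 0.05) with the list median (line), for light against control (left) and minocycline against light (right). Of the 94 genes, 21 are filled on the left and none on the right; the rightmost filled points of the receptor and find-me lists are Cd300ld and P2ry6, whose controls were at or under the floor, so that their fitted values are no estimate of size.

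Marker lists of other cells were read beside these values. The summed level of 12 microglial markers was 56.3 and 62.2 CPM in the controls, 354 and 1123 after light, and 104 and 53.3 with minocycline, and 5 of 12 were higher after light by edgeR, beside 7.52% of all tested genes, and 11 by DESeq2, beside 7.72% (median log2 3.57). None was called with minocycline against light by edgeR, where 10 had an unadjusted p under 0.05 (21.1% of all tested genes) and DESeq2 called 9 lower (4.62%). Of the 12, Fcrls was at the floor of 3 counts in both controls, and no microglial marker was at 0 in a whole group. This sum was the highest in light 2, as were Axl, Mertk, Pros1, Itgav and Itgb5, and the part of microglia in these values was not tested. By edgeR, 3 of 10 Mueller cell markers were higher after light (6 by DESeq2, summed 3016 and 2049, 3714 and 5024, and 3919 and 2962 CPM in the same order), and of 7 tested astrocyte and reactive glia markers 4 were by both tools (summed 107 and 123, 361 and 479, and 178 and 160 CPM). With minocycline against light, 2 of these 7 glial markers were called lower by edgeR (0.0407% of all tested genes) and 5 by DESeq2 (4.62%). After light, the shares of all genes are those given for the microglial markers.

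None of 8 tested markers of the retinal pigment epithelium was called in any comparison by edgeR or DESeq2, and at most 1 had an unadjusted p under 0.05. Their sum was 212 and 428 CPM in the controls, 216 and 285 after light, and 173 and 244 with minocycline. The defining marker Best1 had at most 1 count in any library, whereas Rpe65 had 19.6 and 67.9 CPM in the controls. Control 2 had the higher Rpe65 of the controls, and Mertk, Pros1 and Itgav were also higher in control 2. Axl was nearly equal (8.71 and 8.93 CPM in controls 1 and 2), and Tyro3, Gas6, Mfge8 and Itgb5 were higher in control 1. Rod markers summed to 103196 and 80712 CPM in the controls, 60269 and 42735 after light, and 87964 and 94334 with minocycline, and 1 of 10 was lower after light by edgeR (3.8% of all tested genes) and 9 by DESeq2 (5.28%). With minocycline against light, none of the 10 was called by edgeR, where 9 had an unadjusted p under 0.05 (21.1% of all tested genes), and DESeq2 called 9 higher (2.9%).

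Markers of pigment cells, stroma, smooth muscle and corneal epithelium had higher summed levels in both minocycline libraries. Pigment cell markers summed to 327 and 1426 CPM there, against 28.3 to 86.9 in the other 4 libraries, stromal markers to 52.9 and 184 (16.7 to 22.6), pericyte and smooth muscle markers to 114 and 391 (37.3 to 64.4), and corneal epithelial markers to 191 and 266 (2.25 to 15.2). Of these lists, edgeR called 1 of 5 tested corneal genes higher with minocycline in each comparison. Over all tested genes, it called 0.0136% higher against light and 0.162% in either direction against control. With minocycline against light, DESeq2 called 8 of 8 pigment cell, 6 of 8 stromal, 6 of 10 pericyte and smooth muscle (with 1 lower) and 4 of 5 tested corneal genes higher, beside 2.9% of all genes it tested, and all 8 pigment cell genes had an unadjusted p under 0.05. Against control, DESeq2 called 2 pigment cell, 4 stromal, 2 pericyte and smooth muscle and 3 corneal genes higher, beside 1.09% of all genes it tested. After light, edgeR called 1 of 8 tested pericyte and smooth muscle genes higher, beside 7.52% of all tested genes. The sums were larger in minocycline B than in A. Between these libraries Tyro3 differed 1.97-fold, Itgb5 1.32-fold, Axl 1.31-fold and the other 5 genes 1.06-fold to 1.20-fold. The part of these cells in the minocycline values was not tested. Endothelial markers summed to 227 and 198, 288 and 372, and 302 and 225 CPM in control, light and minocycline. Of these 10 markers, 1 was higher after light by edgeR, beside 7.52% of all tested genes. The 8 housekeeping genes summed to between 560 and 757 CPM. None was called by edgeR or DESeq2, and at most 2 had an unadjusted p under 0.05.

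**Figure D5:**
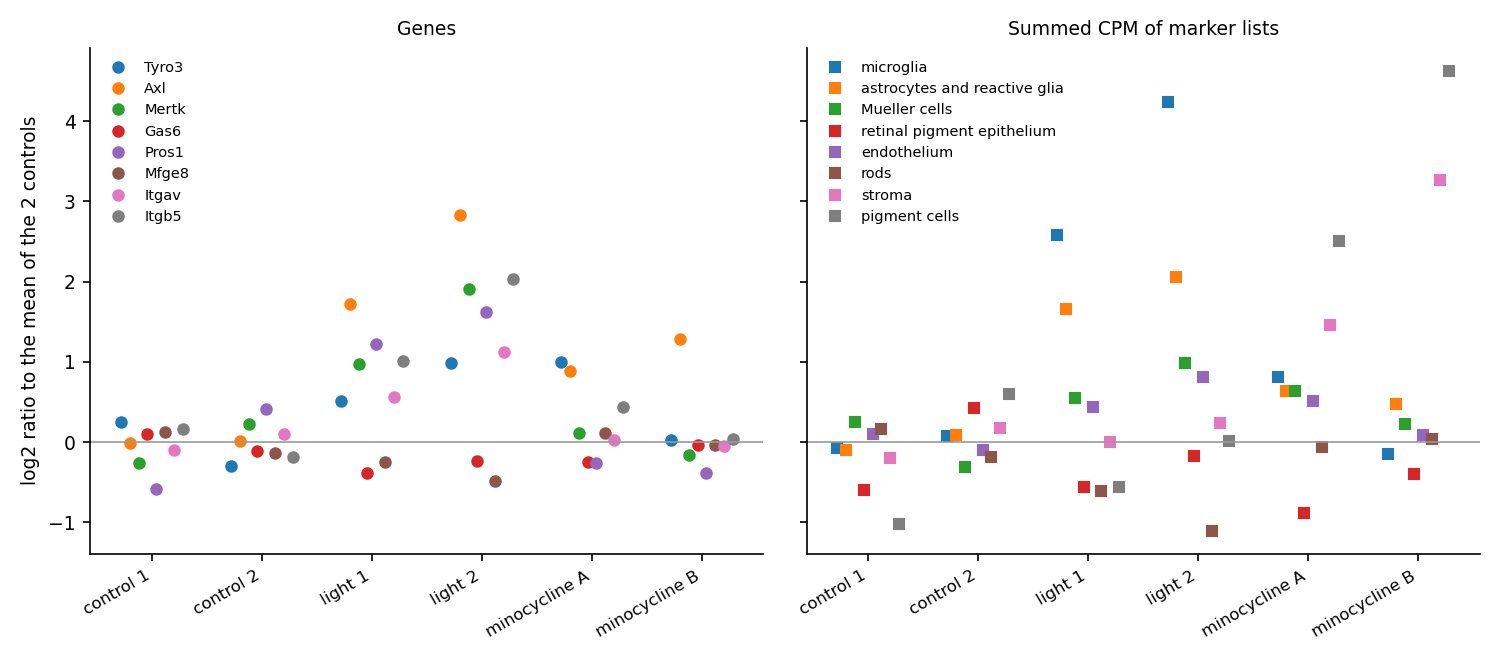
Log2 ratio of each library to the mean of the 2 controls, for the 8 genes (left) and for the summed CPM of 8 marker lists (right), with 1 point per gene or list in each library. Axl in light 2 (62.6 CPM) is the highest point on the left. On the right, the lists of corneal epithelium, pericytes and smooth muscle, and housekeeping genes are not plotted. Of the 8 lists shown, microglia (1123 CPM) have the highest ratio in light 2 and pigment cells (1426 CPM) in minocycline B.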

How the data were processed

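Retinal poly-A RNA of 6 mouse libraries was sequenced in 3 groups of 2. The authors prepared stranded libraries, aligned reads to mm10 (GRCm38) with STAR, counted them per gene with RNA Express and tested with DESeq2; the deposited values are raw counts per gene, although the data statement calls them normalized (whole numbers, unequal totals). Annotation, versions and strand use were not given in the sources used here. All value columns were used (0 unused).

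Pairs of groups were compared with edgeR 4.0.16 (R 4.3.3, limma 3.58.1): filterByExpr, TMM, quasi-likelihood F test with robust estimation, Benjamini-Hochberg adjustment, calls at an adjusted p under 0.05. CPM used TMM over all 6 libraries, log2 CPM a prior count of 2, and RPKM the merged exon length of GENCODE M21. The detection floor was 3 counts, 0.131 to 0.214 CPM. Intervals are 95%. P-values measure the spread between these samples. Scripts were tested on simulated data.

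The 8 genes and the lists were chosen with earlier results of these data known. Genes named from a list are the 4 called after light with the largest change and any called with minocycline; for each gene spanning at least 1 on the log2 scale, the 3 most similar are named. Alternatives were DESeq2 1.42.0, other normalizations, filters and thresholds, all libraries in a single fit, a replicate block and leaving out each library.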

Additional observations from a re-analysis of the deposited data

How the results depend on the processing

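The direction was kept in 173 of 176 values of the 8 genes under other settings and in 87 of 96 with a library left out. The reversals were of values that passed no test: Mertk with minocycline against control (-0.0029 by DESeq2, -0.018 with all 6 libraries in a single fit, -0.24 to 0.24 with a library left out) and Itgav (-0.0094 in the single fit, -0.11 to 0.095 with a library left out, and -0.0037 without minocycline A), and, with a library left out, Pros1 (-0.75 to 0.26), Mfge8 (-0.086 to 0.18) and Gas6 (-0.25 to 0.0073) in the same comparison and Tyro3 with minocycline against light (-0.72 to 0.22, and 0.074 without light 2). The number of the 8 called higher after light was 4. It was 1 with the fold cutoff and 0 to 5 with a library left out (0 without either control, 1 without light 2, 5 without light 1). The number called lower with minocycline against light was 1. It was 5 by DESeq2, 0 with DESeq2 size factors, 0 with total library size, 3 without a filter, 3 in the single fit, 0 with the fold cutoff, 3 at an adjusted p under 0.1, and 0 to 5 with a library left out. The number called higher with minocycline against control was 0, and 1 (Axl) by DESeq2 and 1 without a filter; with a library left out it was 0. Without a filter Pros1 was no longer called after light (adjusted p = 0.0566 by edgeR). The causes were not tested. Counts of the pathway lists with a library left out were added after seeing the data. In fits with a library left out, the lone library of a group is assumed to vary like the others.

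Total library size shifted the all-gene median (log2) to 0.24 after light and to -0.17 with minocycline against light, and relative to this shift the 8 genes kept their directions. It raised the share of higher genes among those called after light from 66.4% to 93.6% (1930 higher, 133 lower).

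Same-numbered light and control libraries showed no shared deviations (correlation -0.0075 over 14349 genes). With 2 libraries a group, this check cannot exclude a pairing. With the replicate block 5 of the 8 genes were called higher after light, and 1668 higher and 857 lower over all genes, against 1079 and 545. For the comparisons with minocycline, no paired analysis was possible. The sample titles number the 2 replicates, but both count columns carry the same header and could not be matched to them. Counts over all genes are given as higher and lower where either differed by more than 1.5 times. After light they were 1159 and 265 without light 1, 820 and 351 in the single fit, 1462 and 829 without a filter, 1930 and 133 with total library size, 415 and 4 with the fold cutoff, 1724 and 1092 at an adjusted p under 0.1, 2 and 0 without control 1, 6 and 0 without control 2, and 107 and 0 without light 2. For minocycline against light (2 and 6) they were 462 and 737 by DESeq2, 247 and 485 without a filter, 135 and 353 in the single fit, 277 and 605 at an adjusted p under 0.1, 5 and 10 without robust estimation, 0 and 2 with DESeq2 size factors, 0 and 0 with total library size, 1 and 6 with the filter of 10 counts in each library, 123 and 838 without light 1, 7 and 52 without light 2, 269 and 190 without minocycline A, and 4 and 8 without minocycline B. For minocycline against control (23 and 0) they were 163 and 4 by DESeq2, 183 and 4 without a filter, 3 and 0 where every library had to hold 10 counts or more, 48 and 0 at an adjusted p under 0.1, 0 and 0 in the single fit, and from 0 and 0 to 176 and 2 with a library left out.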
